A study of Mus musculus with 12 samples.

Results

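Kidneys of cisplatin-treated mice that had received pulsed focused ultrasound (pFUS) and umbilical cord mesenchymal stem cells (UC) were compared, gene by gene, with kidneys of mice that had received cisplatin alone. The first group is called pFUS_UC and the second AKI (acute kidney injury), with 4 bulk RNA-seq libraries each, which is 8 of the 12 libraries of the series. The groups were taken from the sample labels. All mice were wild-type C57BL/6, and every group had been given cisplatin, a platinum drug that is toxic to kidney tubule cells. The remaining 4 libraries, from mice given cisplatin and the cells without ultrasound (UC), were used to estimate the spread and as a reference level. The labels name no uninjured kidneys and no kidneys with ultrasound alone, so the comparison holds the cells and the ultrasound together. Cell dose, ultrasound setting, time of sampling, age, sex and whether the libraries kept strand are not stated in the labels. The labels do not state that the 4 libraries of a group came from separate animals, so p-values measure the spread between these samples, which may be technical.

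Cisplatin enters the cells of the kidney tubule, binds DNA and damages mitochondria, on which the tubule depends for the energy of solute transport. Injured tubule cells can lose transport functions, while glomerular podocytes, endothelium and fibroblasts respond with changes in filtration barrier, vessel and matrix genes. Mesenchymal stem cells are given as a source of secreted repair signals, and focused ultrasound is applied to tissue to favour the homing of such cells and as a mechanical stimulus.

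The libraries held 17.3 to 23.5 M counts in AKI and 18.5 to 25.2 M in pFUS_UC. Defining genes of proximal tubule, thick ascending limb, distal tubule, collecting duct, podocytes and endothelium were detected in all 8 libraries. Of the adrenal cortex genes, Cyp11b1 had no read in any library and Cyp11a1 had 0 to 3, while Star had 59 to 114 reads. On the first principal component of the 8 libraries, which carried 56.2% of the variance of the 500 most variable genes, pFUS_UC libraries lay at 12.7 to 29.04 and AKI libraries at -29.5 to -8.25. AKI replicate 1, at -8.25, stood nearer to pFUS_UC than the other AKI libraries, at -29.5 to -25.6, and pFUS_UC replicate 4 stood apart on the second component. The 4 AKI libraries also carry another type of sample code (KR) than the other 8 (K), so whatever that code stands for cannot be told apart from the treatment. Library composition differed as well: the genes of mitochondrial DNA took 4.995 ± 1.88% of counts in AKI and 12.3 ± 3.67% in pFUS_UC, and long noncoding RNAs 0.580 ± 0.143% and 0.997 ± 0.130% (SD, n = 4; exact permutation p = 0.0286 for each, the smallest that 4 against 4 allows, adjusted p = 0.0357 over 10 measures). The ribosomal RNA gene Rn18s-rs5 took 0.495 ± 0.125% of counts in AKI, 1.02 ± 0.166% in pFUS_UC and 0.638 ± 0.116% in UC (SD, n = 4; exact permutation p = 0.0286 for pFUS_UC against AKI, adjusted p = 0.0357), without overlap between AKI and pFUS_UC, and its part in the results was not tested. Between pFUS_UC and UC, edgeR called 0 of 16947 genes at an adjusted p under 0.05 (0% of genes), with 1342 at an unadjusted p under 0.05, and DESeq2 called 44, with 1452 unadjusted.

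Differences between pFUS_UC and AKI ran through the whole transcriptome. Of 16947 genes tested with edgeR's quasi-likelihood test, 7463 (44%) passed an adjusted p of 0.05, 3715 of them higher in pFUS_UC (21.9%) and 3748 lower (22.1%). Most called differences were small, with 4623 genes under 2-fold, while 1696 genes were at least 2-fold higher and 1144 at least 2-fold lower. At 8-fold or more, 54 genes were higher and 21 lower. The 4 libraries of one group did not overlap with those of the other for 40.8% of tested genes. Throughout, levels are TMM-scaled CPM (counts relative to library size), and a log2 fold change is pFUS_UC against AKI with its standard error (SE).

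The direction of the change went with the kind and length of the gene. Among 1591 long noncoding RNA genes 637 were higher and 40 lower (median log2 fold change 0.84), whereas among 14172 protein-coding genes 2694 were higher and 3600 lower (median -0.06). In the shortest of 10 equal groups of protein-coding genes, up to 1750 bases of summed exon length, 604 of 1418 genes were higher and 87 lower (median 0.47). In the longest group, from 9817 bases on, 151 were higher and 568 lower of 1418 (median -0.27). The rank correlation of a library's relative level with gene length was 0.157 to 0.377 in AKI libraries and -0.244 to 0.0112 in pFUS_UC libraries, a description over genes, which are not independent. Whether gene length caused any single result was not tested. In a second fit of all genes with a length and GC correction, 5080 of the 7463 genes were called again, 12 of them in the opposite direction. Counts of calls with that correction are given beside the gene groups below where they differ by more than 1.5-fold.

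**Figure D1:**
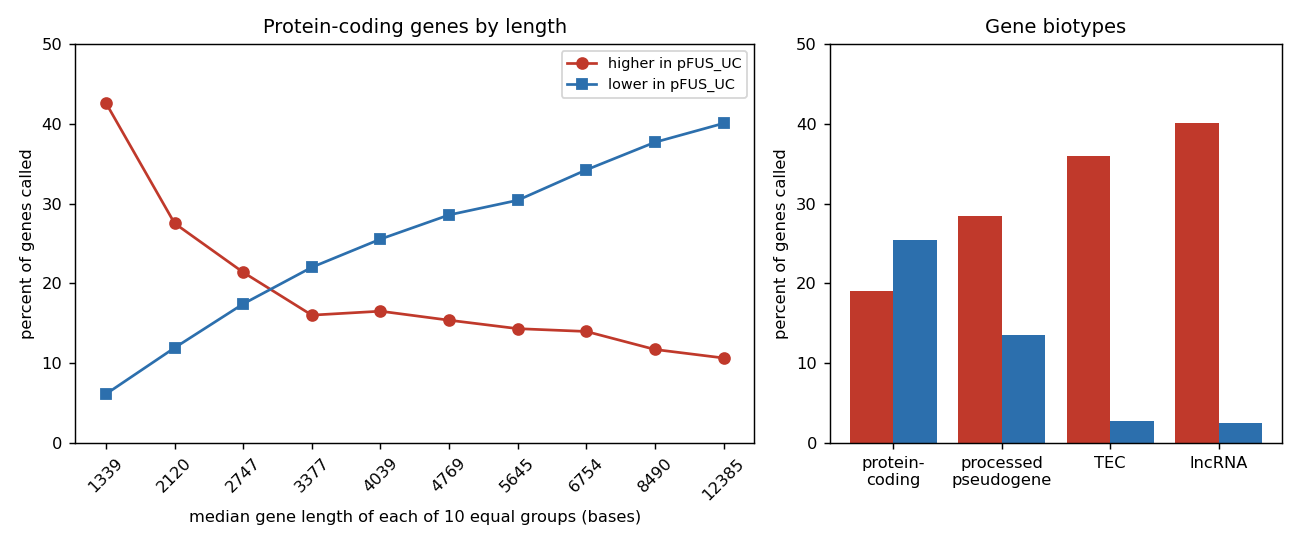
Percent of tested genes called higher (red) or lower (blue) in pFUS_UC than in AKI at an adjusted p under 0.05, by 10 equal groups of protein-coding genes in order of length (left, x axis in bases) and by biotype (right; TEC, transcripts the annotation holds as still to be tested by experiment). The share called higher falls from 42.6% in the shortest group to 10.6% in the longest, and the share called lower rises from 6.14% to 40.1%.

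Transcription factor genes, as classified in the deposited table, were lower in 277 and higher in 190 of 1066 cases (median -0.07), shares close to those of all protein-coding genes (25.98% against 25.4% lower, 17.8% against 19.01% higher). Families moved apart from each other. The C2H2 zinc finger family, the largest, had 132 of 468 members higher and 73 lower (median 0.21). The basic leucine zipper (bZIP) family, which holds the AP-1 factors, had 3 of 47 higher and 21 lower (median -0.55), the forkhead family 1 of 24 higher and 14 lower, and the ETS family, which holds endothelial regulators, 3 of 22 higher and 12 lower.

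The protein-coding gene with the smallest p among the large decreases was Ecm1, extracellular matrix protein 1 (ENSMUSG00000028108, chromosome 3, 95641459 to 95646881, GRCm39). Its level was 232, 385, 381 and 299.9 CPM in the AKI libraries and 39.01, 58.04, 45.7 and 55.8 CPM in the pFUS_UC libraries (log2 fold change -2.71, SE 0.18, adjusted p = 5.43e-06). Every pFUS_UC library lay below every AKI library, which the selection of these genes required. Cyp26b1, which breaks down retinoic acid, fell from 20.8 to 37.6 CPM to 1.71 to 4.41 CPM (log2 fold change -3.26). The complement component C7 had 10.2 to 31.8 CPM in AKI and 1.92 to 2.82 CPM in pFUS_UC, and the alpha-1B adrenergic receptor Adra1b 4.81 to 14.6 and 0.886 to 1.82 CPM. Further large decreases were in the protocadherin Pcdhgc3, the endocytic adaptor Ston1, the laminin chain Lama2, C1qtnf1, the collagen Col14a1, the transcription factor Egr1 and the matrix protease Mmp2, with log2 fold changes from -3.31 to -2.67. These 11 were selected by size and for groups that do not overlap, so their size and separation are a description.

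Large increases sat in mitochondrially encoded genes (mt-Nd3, mt-Co2, mt-Atp6 and mt-Co3) and in a set of genes of unlike function. Mean AKI levels of mt-Nd3, mt-Co2, mt-Atp6 and mt-Co3 were 1.64, 156, 105 and 120 CPM, against 22860 CPM for mt-Co1. Whether reads shared with nuclear copies affected the levels of mitochondrially encoded genes was not tested. Rgs11, a regulator of G protein signalling, had 15.4, 9.75, 5.69 and 5.23 CPM in AKI and 32.2, 51.6, 57.5 and 37.4 CPM in pFUS_UC (log2 fold change 2.31, SE 0.31, adjusted p = 0.000166), with no overlap. Cmc4, a small mitochondrial protein, had 1.42 to 3.08 CPM in AKI and 8.82 to 14.1 CPM in pFUS_UC (log2 fold change 2.51), and Cox8b, a cytochrome c oxidase subunit best known from heart and muscle, 1.76 to 3.22 and 8.65 to 16.7 CPM (2.39). Both were low genes in AKI. For both, as for Rgs11 and the other increases selected by size, the selection required every pFUS_UC library to be higher. Amylase Amy1, Tarm1 and Fam25c rose by 2.62, 2.44 and 2.30 on the log2 scale. Gapdh, the glycolytic enzyme, headed the increases selected by size (4.28, SE 1.22), and its value rested on pFUS_UC replicate 3: the 4 pFUS_UC libraries had 16.5, 26.3, 577 and 14.2 CPM, against 10.7, 7.88, 7.03 and 7.01 CPM in AKI. Without that library the log2 fold change was 1.22 (adjusted p = 0.177), so the call was lost. Many near-identical copies of Gapdh lie in the mouse genome and how shared reads were handled is not stated in the labels, so its level is uncertain. In the same way Psmc3ip had 13.02, 4.41, 3.295 and 24.95 CPM in the 4 pFUS_UC libraries, uneven within the group, against 2.02 to 3.23 CPM in AKI.

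Among genes of other biotypes, the noncoding 6720427I07Rik rose from 0.795 to 2.84 to 8.52 to 14.4 CPM and AI838599 from 2.47 to 9.05 to 28.99 to 62.7 CPM. Gm29216, a nuclear pseudogene, rose by 3.20 on the log2 scale. The pseudogenes Ctdsp2-ps and Ncoa4-ps fell, by 2.42 and 2.13. Reads of pseudogenes may be shared with their parent genes.

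**Figure D2:**
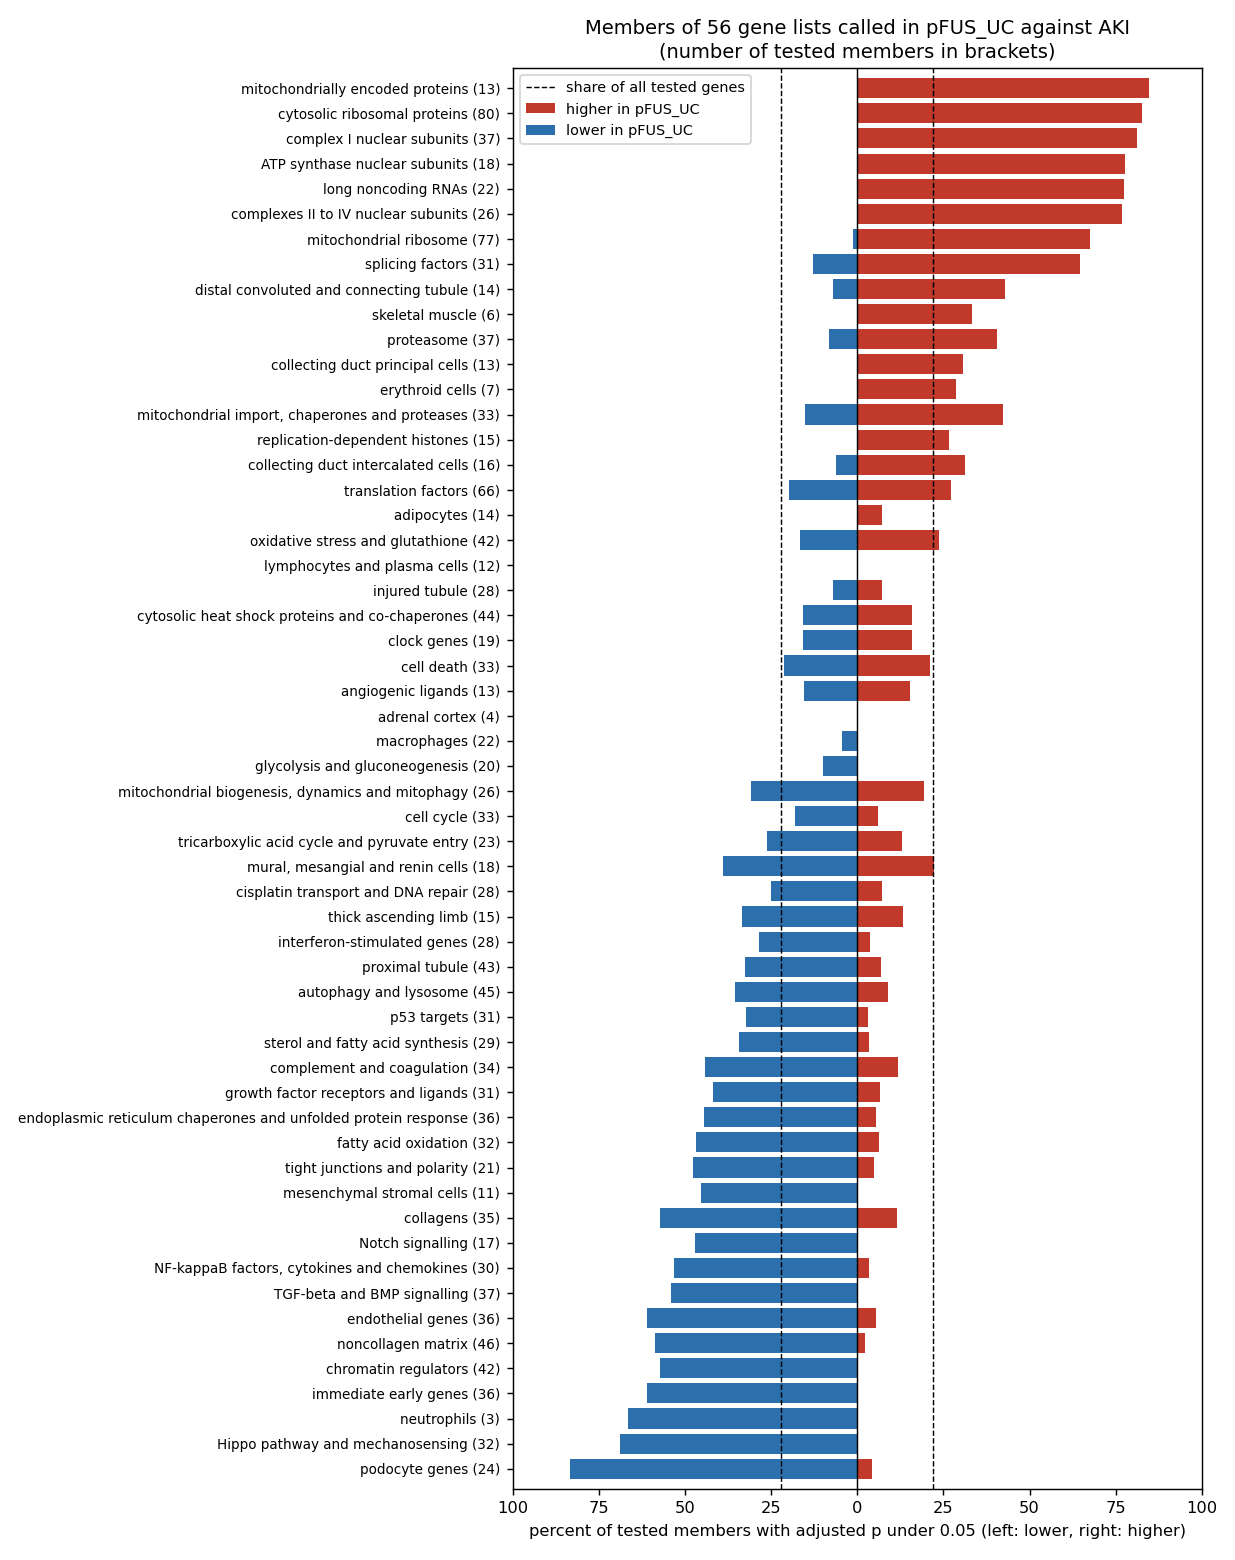
Percent of tested members of 56 gene lists that were called higher (red, to the right) or lower (blue, to the left) in pFUS_UC than in AKI at an adjusted p under 0.05, with the number of tested members in brackets. The dashed lines mark the shares of all tested genes, 21.9% higher and 22.1% lower; respiratory chain, ribosome, noncoding RNA and splicing lists stand at the top and podocyte, Hippo and immediate early gene lists at the bottom.

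Genes of the respiratory chain were higher in pFUS_UC, from both genomes. Of 13 mitochondrially encoded proteins 11 were higher and none lower (median log2 fold change 1.95, against 0.02 over all tested genes). Not called were mt-Co1 (log2 fold change 1.03, adjusted p = 0.0508) and mt-Nd5 (1.02, adjusted p = 0.0613). Nuclear genes moved the same way in smaller steps. Complex I (NADH dehydrogenase) had 30 of 37 subunit genes higher (median 0.81), complexes II to IV 20 of 26 (median 0.72) and ATP synthase 14 of 18 (median 0.84), with none lower. Within the middle group 11 of 12 complex IV genes were higher, 7 of 10 of complex III with cytochrome c, and 2 of 4 of complex II, which is the one complex with no mitochondrially encoded subunit. With a correction for gene length and GC content 6 of the 13 mitochondrially encoded genes were called, all higher. The median length of these lists was 784 to 2076.5 bases, against 3871 over all tested genes.

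The mitochondrially encoded mt-Co2, a core subunit of cytochrome c oxidase, had 213, 171, 76.01 and 165 CPM in the AKI libraries and 505, 1986, 1982 and 1469 CPM in the pFUS_UC libraries (log2 fold change 3.25, SE 0.49, adjusted p = 0.000302). The groups did not overlap, but pFUS_UC replicate 1 lay well below the other 3 libraries of its group. The same library was lowest for mt-Co3, mt-Atp6 and mt-Nd3. Of the nuclear genes, Cox7c and Cox6c of complex IV had 154 to 169 and 179 to 261 CPM in AKI and 342 to 498 and 515 to 812 CPM in pFUS_UC. Uqcrh of complex III went from 182 to 220.3 to 343 to 452 CPM (log2 fold change 1.004), and Ndufc1, Ndufs6 and Ndufb2 of complex I rose by 1.39, 1.30 and 1.68 on the log2 scale. Among ATP synthase genes, Atp5k, which encodes the small subunit e, had 48.4, 42.8, 56.8 and 58.7 CPM in AKI and 128, 191, 209 and 181 CPM in pFUS_UC (log2 fold change 1.78, SE 0.16, adjusted p = 5.4e-05). In each of these nuclear genes all pFUS_UC libraries exceeded all AKI libraries.

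The nuclear respiratory genes are known targets of the transcription factor NRF1, whose palindromic site has the core GCGCATGCG. RefSeq promoter windows (GRCm38.p6, 250 bases before to 50 after the start site; the deposited tables use GRCm39) were matched by symbol for 68 of the 81 tested nuclear subunit genes. The core was found on either strand in 9 of the 68 (13.2%), against 432 of 11910 tested genes with a promoter window (3.63%). It was in 7 of 56 genes called higher and in 2 of 12 that were not. The windows of 3 called genes with a match and a small p are shown because they carry these letters in genes that rose together. The first match began at -50 from the start site in Atp5k, -241 in Atp5l and -5 in Uqcr11. Capitals mark the core on either strand, and in Atp5k the matches of both strands overlap by all but 1 base. A match of letters is a description and not evidence of binding.
Atp5k (chr5:108434350-108434649, minus strand): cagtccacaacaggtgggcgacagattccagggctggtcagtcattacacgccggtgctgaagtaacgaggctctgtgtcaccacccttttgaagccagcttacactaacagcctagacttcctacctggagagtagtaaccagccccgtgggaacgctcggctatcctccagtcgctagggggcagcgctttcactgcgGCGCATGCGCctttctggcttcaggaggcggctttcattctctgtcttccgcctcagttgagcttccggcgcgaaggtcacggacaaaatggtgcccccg
Atp5l (chr9:44920693-44920992, minus strand): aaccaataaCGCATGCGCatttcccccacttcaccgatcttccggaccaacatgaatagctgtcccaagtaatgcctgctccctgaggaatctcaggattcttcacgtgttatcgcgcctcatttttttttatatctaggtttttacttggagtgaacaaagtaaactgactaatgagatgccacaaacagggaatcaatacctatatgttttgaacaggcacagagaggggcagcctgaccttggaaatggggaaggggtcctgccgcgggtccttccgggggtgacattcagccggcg
Uqcr11 (chr10:80406772-80407071, minus strand): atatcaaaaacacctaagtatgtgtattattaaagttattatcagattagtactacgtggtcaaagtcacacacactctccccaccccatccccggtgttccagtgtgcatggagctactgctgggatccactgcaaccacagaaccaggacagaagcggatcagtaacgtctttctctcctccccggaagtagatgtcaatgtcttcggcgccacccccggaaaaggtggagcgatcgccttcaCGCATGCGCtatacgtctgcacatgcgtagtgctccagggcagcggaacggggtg

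Other mitochondrial functions did not move as a block. Mitochondrial ribosomal protein genes, which serve translation inside the organelle, had 52 of 77 members higher and 1 lower (median 0.55); Mrps14, Mrpl41 and Mrpl30 rose by 0.92, 0.83 and 0.84, and the exception, Mrps18b, fell by 0.65. Subunits of the import channels had 11 of 17 higher and 1 lower (median 0.47), led by Tomm7 (35.9 to 41.8 CPM in AKI, 72.7 to 104 CPM in pFUS_UC). Mitochondrial chaperones and proteases had 3 of 16 higher and 4 lower (median -0.04). Regulators of biogenesis had 0 of 12 higher and 3 lower (median 0.0025). Ppargc1a, the coactivator of mitochondrial biogenesis, had 54.1, 36.7, 42.2 and 33.3 CPM in AKI and 46.3, 50.2, 43.6 and 50.5 CPM in pFUS_UC (log2 fold change 0.20, adjusted p = 0.457), so the groups overlapped. Tfam, which packages and transcribes mitochondrial DNA, stood at 0.27 (adjusted p = 0.0928). In the dynamics list Fis1, a fission factor, rose by 0.86 while Mfn2, a fusion factor, fell by 0.94.

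Fuel pathways that feed the chain were lower or showed few calls. In fatty acid oxidation 15 of 32 genes were lower and 2 higher (median -0.44). Ppara, the nuclear receptor that drives this programme in the proximal tubule, had 52.8, 58.5, 37.7 and 37.2 CPM in AKI and 14.96, 11.6, 12.97 and 6.005 CPM in pFUS_UC (log2 fold change -2.03, SE 0.26, adjusted p = 0.000116), without overlap. Acadvl, the very long chain acyl-CoA dehydrogenase, fell by 1.51. Etfb, which passes electrons from these enzymes to the respiratory chain, went the other way, from 44.9 to 65.4 to 106 to 246 CPM (log2 fold change 1.53). In the tricarboxylic acid cycle and pyruvate entry 3 of 23 genes were higher and 6 lower (median 0.03); the pyruvate carrier gene Mpc2 rose by 0.94 and Pdha1 of pyruvate dehydrogenase fell by 0.73. In glycolysis and gluconeogenesis, a list without Gapdh, 0 of 20 were higher and 2 lower, Pgam1 and Pfkl; the call of Pfkl was lost without AKI replicate 3 or pFUS_UC replicate 2 or 3 (-0.52 to -0.61). In sterol and fatty acid synthesis 10 of 29 were lower and 1 higher (median -0.47), with Hmgcs1, an early enzyme of cholesterol synthesis, higher by 0.57. With the length and GC correction 5 of these 29 were lower, and 6 without AKI replicate 3 or AKI replicate 4.

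**Figure D3:**
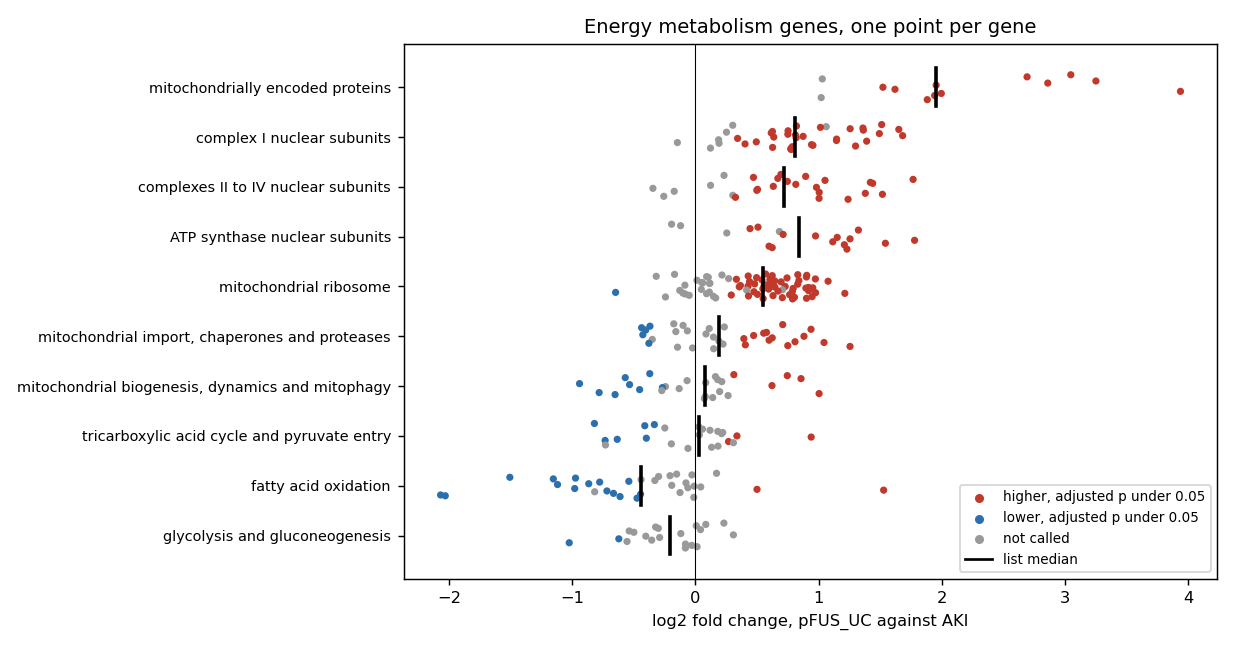
Log2 fold change of pFUS_UC against AKI for each tested gene (points) of 10 energy metabolism lists, red where called higher, blue where called lower, grey where not called; black bars are list medians. Respiratory chain medians lie between 0.72 and 1.95, and those of fatty acid oxidation and glycolysis with gluconeogenesis below 0.

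Protein synthesis genes rose on the side of the ribosome. Of 80 cytosolic ribosomal protein genes 66 were higher and none lower (median 0.91). Rps29 had 123, 99.4, 100.3 and 109 CPM in AKI and 260.4, 396, 382 and 296 CPM in pFUS_UC (log2 fold change 1.63, SE 0.17, adjusted p = 5.5e-05). The groups stood clear of each other, as they did for Rpl37 and Rps24, which rose by 1.24 and 1.34. Many ribosomal protein genes have processed copies that could share reads. Translation factors, including modifying enzymes and regulators of the same name stems, had 18 of 66 higher and 13 lower (median -0.02): Eif5b and Eef1d rose by 0.96 and 0.79, and the scaffold Eif4g1 fell by 0.86. When any single library was left out, 8 to 14 of them were higher, with 8 or 9 without AKI replicate 2, pFUS_UC replicate 2 or pFUS_UC replicate 4. Proteasome genes had 15 of 37 higher and 3 lower (median 0.19). When any single library was left out, 8 to 14 were higher, with 8 without pFUS_UC replicate 2. There were 7 higher without AKI replicate 1 and pFUS_UC replicate 4 together, and 8 with the length and GC correction.

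RNA processing and noncoding RNA genes were higher. Splicing factor genes had 20 of 31 higher and 4 lower (median 0.73). Their median length was 5710 bases, and the part of length in this result was not tested. Srsf7, a serine-arginine-rich splicing regulator, had 45.6, 31.6, 25.5 and 24.8 CPM in AKI and 79.4, 97.2, 111 and 90.03 CPM in pFUS_UC (log2 fold change 1.57, SE 0.19, adjusted p = 9.95e-05), and the snRNP core genes Snrpd2 and Snrpd3 rose by 1.16 and 0.81. Prpf8, the large central spliceosome protein, fell by 0.77. Of 22 listed long noncoding RNAs 17 were higher and none lower (median 1.25), among them the small nucleolar RNA hosts Snhg8 (1.64) and Snhg20 (2.44) and Kcnq1ot1, the imprinted antisense transcript of Kcnq1 (1.45 to 4.04 CPM in AKI, 7.53 to 10.1 CPM in pFUS_UC). AKI replicate 1 was the highest AKI library for each of these 3. Histone genes of the replication-dependent type, whose transcripts lack poly(A) tails, had 4 of 15 higher and none lower. Chromatin regulators, with a median length of 11772 bases, had 24 of 42 lower and none higher (median -0.30), among them the histone methyltransferase Setd1b, the corepressor Ncor1 and the acetyltransferase Kat6a. With the length and GC correction the median was 0.10, with 7 higher and 9 lower, so no direction of this list holds across settings.

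Along the nephron, more of the called genes were lower in the thick ascending limb and more were higher in the segment that follows, but in some settings the shares came near those of all genes. In the thick ascending limb, where salt is reabsorbed without water, 5 of 15 genes were lower and 2 higher (median -0.49). Slc12a1, a marker of this segment, was not called (log2 fold change -0.53, adjusted p = 0.094), and the groups overlapped. Also not called were Ptger3 (-0.83), Sostdc1 (-0.49), Cldn19 (-0.10), Kcnj1 (0.05), Cldn10 (0.06), Bsnd (0.08) and Tmem207 (0.50). Umod, uromodulin, the most abundant protein of normal urine, had 2783, 2523, 4214 and 4019.9 CPM in AKI and 1746, 953, 809.8 and 1651 CPM in pFUS_UC (log2 fold change -1.39, SE 0.41, adjusted p = 0.0154). Egf, whose precursor is made in the same cells and in the distal tubule, had 1352, 1235, 1532 and 1678 CPM in AKI and 843, 419, 526 and 687 CPM in pFUS_UC (log2 fold change -1.23, SE 0.29, adjusted p = 0.00445). Both were lower in every pFUS_UC library, but the call of Umod was lost without pFUS_UC replicate 3 (log2 fold change -1.22, adjusted p = 0.0505), and 3 of the 15 genes were then lower, beside 3056 of all 17133 genes tested in that setting. The calcium-sensing receptor Casr (32.1 to 65.6 CPM in AKI, 12.2 to 17.7 CPM in pFUS_UC) and the transcription factor Foxq1 fell by 1.77 and 1.06. Of the 2 that rose, Ppp1r1a, a phosphatase inhibitor, went up by 0.81, a call that was lost when any 1 of 6 libraries was left out (log2 fold changes 0.77 to 0.81, adjusted p = 0.05 to 0.0607).

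In the next segment, the distal convoluted and connecting tubule, 6 of 14 genes were higher and 1 lower (median 0.62). Slc12a3, the thiazide-sensitive sodium chloride cotransporter (ENSMUSG00000031766, chromosome 8, 95055829 to 95092842, GRCm39), had 170.0, 157, 259 and 331 CPM in AKI and 726, 782, 1046 and 771 CPM in pFUS_UC (log2 fold change 1.86, SE 0.35, adjusted p = 0.00107). Calb1, the calcium-binding protein calbindin, had 65.00, 61.4, 85.01 and 92.1 CPM in AKI and 239, 223, 207 and 353 CPM in pFUS_UC (log2 fold change 1.75, SE 0.34, adjusted p = 0.00131). Pvalb, parvalbumin, which marks the early distal convoluted tubule and is also a skeletal muscle gene, had 27.2, 27.2, 74.3 and 49.1 CPM in AKI and 125, 76.6, 107 and 145 CPM in pFUS_UC (log2 fold change 1.35, adjusted p = 0.0385). In all 3 genes the lowest pFUS_UC library was above the highest AKI library, though for Pvalb by little, and its call was lost when any 1 of 6 libraries was left out (log2 fold changes 1.17 to 1.39, adjusted p = 0.0648 to 0.102). Atp2b1, a plasma membrane calcium pump, fell by 0.62. Without AKI replicate 1 and pFUS_UC replicate 4 together 3 of the 14 genes were called higher, beside 3590 of all 17061 tested in that setting. The summed level of the list was 1766 to 2480.1 CPM, not TMM-scaled, in AKI and 3143 to 4275 CPM in pFUS_UC, and that of the thick ascending limb list 5914 to 8535 and 3079 to 5289 CPM. Within the thick ascending limb list, TMM-scaled means in AKI and pFUS_UC were 3385 and 1290 CPM for Umod and 1449 and 619 CPM for Egf. In bulk tissue fewer cells of a type and less RNA per cell cannot be told apart.

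Proximal tubule genes had 14 of 43 lower and 3 higher (median -0.32), with 9 lower under the length and GC correction. Slc34a1, the main phosphate transporter and one of the most abundant transcripts, had 3977, 3512, 6711 and 4454 CPM in AKI and 4428, 4927, 4826 and 4949 CPM in pFUS_UC (log2 fold change 0.04, adjusted p = 0.909). Lrp2, megalin, the uptake receptor for filtered proteins, had 1924, 1438, 2945 and 2278 and 1444, 1129, 1170.3 and 1694 CPM (log2 fold change -0.66, SE 0.22, adjusted p = 0.0241), with 2 pFUS_UC libraries inside the AKI range and a call that needed each of AKI replicates 3 and 4 and pFUS_UC replicates 2 and 3 (without one of them, log2 fold changes -0.47 to -0.63). The amino acid transporters Slc3a1 and Slc7a7 were lower without overlap: Slc3a1 had 483 to 593 CPM in AKI and 118 to 231 CPM in pFUS_UC, and Slc7a7 261 to 385 and 111 to 173 CPM. Ttc36 was among the genes that rose, by 0.94. Collecting duct lists had few calls: in principal cells 4 of 13 were higher (2 when AKI replicate 1, AKI replicate 3 or pFUS_UC replicate 2 was dropped), among them Fxyd4 (23.9 to 32.3 and 57.4 to 112 CPM), and the water channel Aqp2 was at 0.48 (adjusted p = 0.264). In intercalated cells 5 of 16 were higher and 1 lower, with the proton pump subunits Atp6v1g3 at 1.25 and Atp6v0a4 at -0.79.

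**Figure D4:**
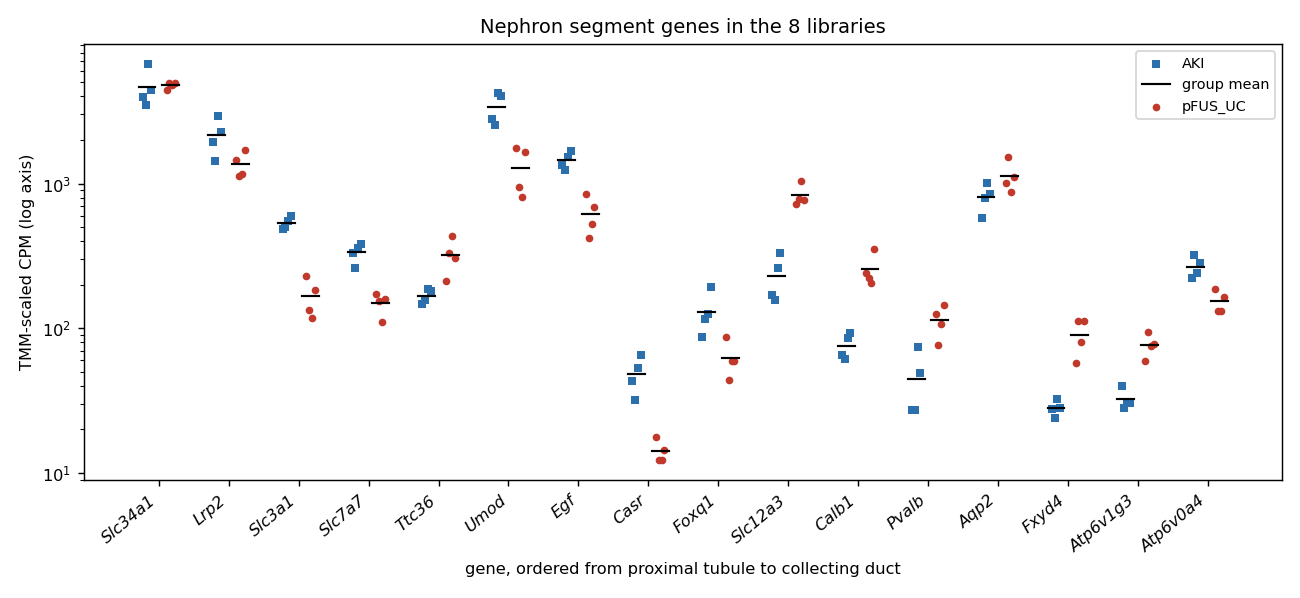
TMM-scaled CPM on a log axis of 16 nephron genes in the 4 AKI (blue squares) and 4 pFUS_UC (red circles) libraries, with group means as black bars, ordered from proximal tubule to collecting duct. Umod, Egf and Casr lie lower and Slc12a3 and Calb1 higher in all pFUS_UC libraries, while the groups overlap for Slc34a1, Lrp2, Foxq1 and Aqp2.

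Tubule injury genes showed little separation between the groups. Of 28 such genes 2 were higher (1 without AKI replicate 1 or AKI replicate 3) and 2 lower (median -0.07), and Sox4, a transcription factor of injured and developing epithelium, fell by 1.23. Havcr1, kidney injury molecule 1, had 20.2, 88.7, 84.8 and 98.1 CPM in AKI and 34.5, 17.6, 73.5 and 1.92 CPM in pFUS_UC (log2 fold change -1.19, SE 0.75, adjusted p = 0.214). The pFUS_UC values spread from 1.92 to 73.5 CPM and overlapped with AKI. Lcn2, a secreted iron-binding injury marker, had 14.6, 75.05, 17.7 and 36.8 CPM in AKI and 38.4, 40.2, 32.2 and 7.73 CPM in pFUS_UC (log2 fold change -0.28, adjusted p = 0.764). Clu, clusterin, and Spp1, osteopontin, were at 0.01 (adjusted p = 0.988) and 0.73 (adjusted p = 0.113). For Havcr1 the interval of 2 SE, from -2.69 to 0.31 on the log2 scale, holds both no difference and a decrease of more than 4-fold, and for Lcn2 it runs from -1.65 to 1.10.

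Genes of the glomerular filter were lower. Of 24 podocyte genes 20 were lower and 1 higher (median -1.52). Nphs1, nephrin of the slit diaphragm, had 68.5, 90.97, 80.4 and 72.6 CPM in AKI and 17.04, 25.4, 19.4 and 18.9 CPM in pFUS_UC (log2 fold change -1.95, SE 0.24, adjusted p = 9.5e-05). Synpo, an actin-binding protein of the foot process, had 128, 189, 226 and 165 and 27.2, 51.9, 36.98 and 40.5 CPM (log2 fold change -2.18, SE 0.21, adjusted p = 5.5e-05). Both sets of libraries were fully apart, as for Clic5 (-1.15). The member that rose was Vegfa, the endothelial growth factor that podocytes and tubule cells secrete, with 201, 156, 164 and 131 CPM in AKI and 216, 248, 257 and 217 CPM in pFUS_UC (log2 fold change 0.52, SE 0.16, adjusted p = 0.0166). Without AKI replicate 4 its call was lost (0.43, adjusted p = 0.057).

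Endothelial genes were lower, and ligands that act on endothelium gave few calls. Of 36 endothelial genes 22 were lower and 2 higher (median -1.26). Kdr, the main VEGF receptor, had 65.7, 97.4, 114 and 79.9 CPM in AKI and 15.8, 17.2, 10.6 and 16.6 CPM in pFUS_UC (log2 fold change -2.57, SE 0.25, adjusted p = 5.5e-05), and Flt1, a second VEGF receptor, 73.5, 117, 104 and 77.4 and 21.4, 27.8, 19.2 and 24.8 CPM (log2 fold change -1.99, SE 0.21, adjusted p = 5.86e-05). The insulin-like growth factor binding protein Igfbp3 fell by 2.65 and the anticoagulant receptor Thbd by 1.84, all without overlap. Sox17, a transcription factor of arterial endothelium, went the other way, from 10.9 to 17.2 to 19.7 to 27.9 CPM (log2 fold change 0.71). Of 13 angiogenic ligands 2 were higher, Vegfa and Vegfb (0.45), and 2 lower, among them Apln (-0.99). The call of Vegfb needed each of AKI replicates 1, 2 and 4 and pFUS_UC replicate 4 (without one of them 0.37 to 0.45). The summed level of the endothelial list was 2545 to 4156 CPM in AKI and 937 to 1406 CPM in pFUS_UC, and that of the podocyte list 2053 to 2628 and 943 to 1187 CPM.

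Matrix genes were lower in both basement membrane and interstitium. Of 35 collagen genes 20 were lower and 4 higher (median -0.70), and of 46 other matrix genes 27 were lower and 1 higher (median -0.90). Col4a1 and Col4a2, the main basement membrane chains, fell by 1.77 and 1.84, with Col4a1 at 333, 642, 775 and 572 CPM in AKI and 164, 157, 158 and 199.7 CPM in pFUS_UC. Col14a1, a fibril-associated collagen, had 63.9 to 208 and 16.9 to 24.4 CPM and Col1a1, the chain of fibrillar collagen, 27.7 to 109 and 21.6 to 23.9 CPM (log2 fold change -1.58, SE 0.38, adjusted p = 0.00493). AKI replicate 1 was the lowest AKI library for all 4. Col7a1, of the anchoring fibrils, was low in all libraries and rose by 1.62. Nid1, Lamc1 and the elastic fibre gene Fbln5 fell by 2.33, 1.15 and 2.35. With the length and GC correction 11 of the 35 collagens were lower and 7 higher. Among genes of mural, mesangial and renin cells 7 of 18 were lower and 4 higher: Pdgfrb, the pericyte growth factor receptor, fell by 1.86 and the smooth muscle gene Cnn1 rose by 1.03.

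**Figure D5:**
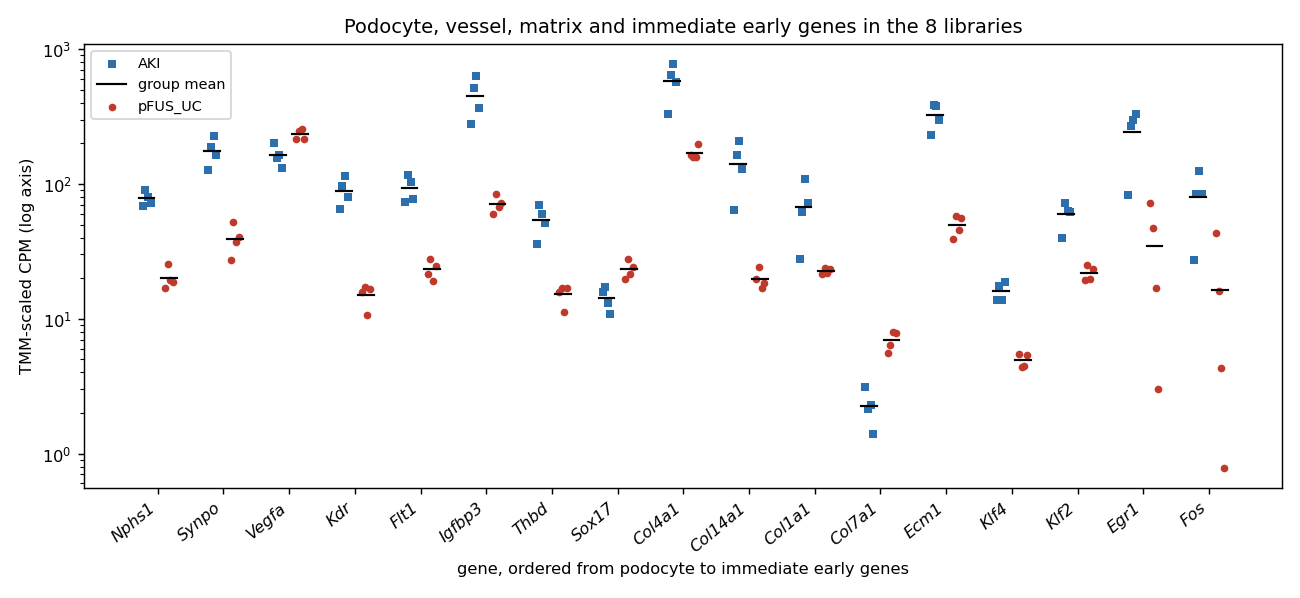
TMM-scaled CPM on a log axis of 17 podocyte, vessel, matrix and immediate early genes in the 4 AKI (blue squares) and 4 pFUS_UC (red circles) libraries, with group means as black bars. All pFUS_UC libraries lie below all AKI libraries for each gene except Vegfa, Sox17 and Col7a1, which are higher, and Fos, which overlaps.

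Immediate early genes, which are switched on within minutes of a stimulus, were lower in pFUS_UC. Of 36 such genes 22 were lower and none higher (median -1.25). Klf4 and Klf2, zinc finger factors that respond to flow and stress, had 13.8 to 18.6 and 39.6 to 72.7 CPM in AKI and 4.41 to 5.49 and 19.5 to 24.9 CPM in pFUS_UC, without overlap. Egr1 had 82.4, 269, 297 and 328 CPM in AKI and 72.1, 47.2, 16.8 and 3.002 CPM in pFUS_UC (log2 fold change -2.81, SE 0.72, adjusted p = 0.00727). Fos, the AP-1 factor, had 27.2, 85.02, 126 and 84.8 CPM in AKI and 43.7, 16.2, 4.32 and 0.788 CPM in pFUS_UC (log2 fold change -2.31, SE 0.81, adjusted p = 0.0333). For Egr1 and Fos the pFUS_UC libraries spanned a wide range with replicate 4 lowest, and AKI replicate 1 was the lowest AKI library. The call of Fos needed each of AKI replicates 2, 3 and 4 and pFUS_UC replicates 2 and 3 (without one of them, log2 fold changes -1.99 to -2.31, adjusted p = 0.0575 to 0.0856). The phosphatase gene Dusp6, a feedback inhibitor of ERK, fell by 1.23.

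Many immediate early promoters are known to carry the cyclic AMP response element, bound by CREB, with the core TGACGTCA. Promoter windows were matched for 28 of the 36 tested genes, and 3 of the 28 (10.7%) held the core on either strand, against 393 of 11910 tested genes with a window (3.3%). All 3 were among the 18 matched genes called lower. Their windows (RefSeq, GRCm38.p6) are shown because these are the matched members with the full core; capitals mark it.
Btg2 (chr1:134079106-134079405, minus strand): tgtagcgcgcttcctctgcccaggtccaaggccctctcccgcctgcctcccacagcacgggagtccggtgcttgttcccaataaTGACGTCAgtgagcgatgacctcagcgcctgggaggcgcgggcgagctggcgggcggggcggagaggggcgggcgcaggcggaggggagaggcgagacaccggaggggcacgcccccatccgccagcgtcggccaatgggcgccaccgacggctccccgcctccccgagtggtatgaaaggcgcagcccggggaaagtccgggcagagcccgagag
Dusp1 (chr17:26508423-26508722, minus strand): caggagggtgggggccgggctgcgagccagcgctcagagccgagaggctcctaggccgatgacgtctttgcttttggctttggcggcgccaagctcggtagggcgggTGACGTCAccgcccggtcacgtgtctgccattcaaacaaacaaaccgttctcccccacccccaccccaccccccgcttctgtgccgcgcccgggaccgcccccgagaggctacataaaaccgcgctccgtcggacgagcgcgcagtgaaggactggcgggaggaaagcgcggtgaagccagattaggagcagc
Maff (chr15:79347270-79347569, plus strand): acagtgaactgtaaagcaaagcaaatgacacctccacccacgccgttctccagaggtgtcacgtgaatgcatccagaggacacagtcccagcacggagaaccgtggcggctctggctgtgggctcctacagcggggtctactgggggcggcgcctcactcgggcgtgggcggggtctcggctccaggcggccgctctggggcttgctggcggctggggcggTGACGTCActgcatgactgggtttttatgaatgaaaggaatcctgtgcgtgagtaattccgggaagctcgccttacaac

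Signalling lists were lower in the main. NF-kappaB factors, cytokines and chemokines had 16 of 30 lower and 1 higher (median -0.71), with Il6ra and Il6st, both chains of the interleukin 6 receptor, down by 2.04 and 1.16, the chemokine Cx3cl1 down by 1.53, and Il18, at most 1.60 CPM in any library, up by 1.59. TGF-beta and BMP signalling had 20 of 37 lower and none higher (median -0.73), Notch signalling 8 of 17 lower (median -0.47) and the Hippo pathway with mechanosensing genes 22 of 32 lower (median -0.59). Notch1 had 39.6, 54.00, 49.1 and 39.7 CPM in AKI and 9.77, 12.5, 9.89 and 10.8 CPM in pFUS_UC (log2 fold change -2.09, SE 0.14, adjusted p = 6.59e-06), without overlap. The TGF-beta mediators Smad3 and Smad4 fell by 0.85 and 0.73 and their corepressor Ski by 1.02. Among Hippo genes Amot and Crim1 fell by 0.86 and 1.28. With the length and GC correction 13 of the 32 Hippo genes were lower. Growth factor receptors and ligands had 13 of 31 lower and 2 higher (7 and 3 with that correction), with the insulin receptor substrate Irs2 at 45.9 to 86.5 CPM in AKI and 13.3 to 19.9 CPM in pFUS_UC.

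Stress pathways gave mixed counts. Of 31 p53 targets 10 were lower and 1 higher (median -0.55), and 18 were lower without AKI replicate 3, 6 without pFUS_UC replicate 3, and 6 without AKI replicate 1 and pFUS_UC replicate 4 together. Cdkn1a, the p53-induced cell cycle inhibitor p21, had 124, 223, 36.1 and 193 CPM in AKI and 74.1, 38.9, 45.6 and 5.86 CPM in pFUS_UC (log2 fold change -1.80, SE 0.63, adjusted p = 0.0317). The groups overlapped, with AKI replicate 3 and pFUS_UC replicate 4 low within their groups, and the call needed each of AKI replicates 2 and 4 and pFUS_UC replicates 2 and 3 (without one of them -1.52 to -1.86). Zmat3 and Sesn2 fell by 1.40 and 0.84, Ddb2, which recognises damaged DNA, rose by 1.16, and Mdm2, the p53 ubiquitin ligase, was at -0.55 (adjusted p = 0.143; -0.78 and 0.022 without AKI replicate 3). In the endoplasmic reticulum 16 of 36 chaperone and unfolded protein response genes were lower and 2 higher (median -0.31): the sensor Ern1 and the degradation factors Edem1 and Sel1l fell by 0.99, 0.98 and 0.98, while Ddit3, the transcription factor CHOP, rose by 0.86.

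Cytosolic heat shock proteins had 7 of 44 higher and 7 lower (median -0.06), both shares under those of all genes. Hspa1a had 16.98, 12.9, 20.01 and 15.6 CPM in AKI and 19.1, 9.205, 4.75 and 8.07 CPM in pFUS_UC (log2 fold change -0.67, adjusted p = 0.504); it and Hspa1b (-0.12) are near-identical copies whose reads may be split. Hsp90aa1 and Hspb1 were at -0.07 and -0.54, and the mitochondrial chaperonin Hspd1, which is outside this list, at 0.11, none called. The cochaperone Ptges3 rose by 1.04 and the factor Hsf2 by 0.82. Oxidative stress genes split by role. In the group of peroxide and superoxide enzymes 6 of 12 were higher and 1 lower, with Gpx1 at 104, 123, 108 and 109.8 CPM in AKI and 252, 343, 414 and 347 CPM in pFUS_UC (log2 fold change 1.61, SE 0.20, adjusted p = 0.000112) and Sod1 higher by 1.14. Among targets of the factor NRF2 1 of 14 was higher and 6 lower, with Gclc, of glutathione synthesis, down by 1.03. Copper transporter Atp7a, which can export cisplatin, had 9.68 to 14.1 CPM in AKI and 1.77 to 4.41 CPM in pFUS_UC (log2 fold change -2.01), within a list of cisplatin transport and DNA repair genes that had 2 of 28 higher and 7 lower.

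Complement and coagulation genes had 15 of 34 lower and 4 higher (median -0.61), with the thrombin receptor F2r at 49.7 to 101 CPM in AKI and 8.902 to 15.7 CPM in pFUS_UC and the complement inhibitor Cd59a higher by 0.90. Interferon-stimulated genes had 8 of 28 lower and 1 higher, but 1 lower without AKI replicate 2, 1 without pFUS_UC replicate 2 and 2 without pFUS_UC replicate 3. In the cell cycle list 6 of 33 were lower and 2 higher: Ccnd1, cyclin D1, had 115 to 268 CPM in AKI and 40.7 to 78.2 CPM in pFUS_UC, and Birc5, survivin, rose by 1.31 at levels of at most 2.90 CPM. Tight junction and polarity genes had 10 of 21 lower and 1 higher, with the scaffold Tjp1 down by 0.90. Clock genes were even, 3 of 19 in each direction (5 higher without AKI replicate 1 or pFUS_UC replicate 1), with Nr1d1 down by 1.43. Autophagy and lysosome genes had 16 of 45 lower and 4 higher, among them Atg9a, down by 1.88, and the lysosomal adaptor Lamtor2, up by 0.94. Cell death genes had 7 of 33 in each direction.

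Marker lists of blood and neighbouring tissue had 0 to 5 calls each, at levels that differed between lists. Macrophage genes had 1 of 22 lower (Cd68, -0.79; 0 to 2 lower without single libraries) and none higher, with a summed level of 306 to 911 CPM in AKI and 436 to 576 CPM in pFUS_UC. None of 12 lymphocyte and plasma cell genes was called by edgeR (1 when any 1 of 5 libraries was left out). Of 3 neutrophil genes 2 were lower, S100a9 and Csf3r, at no more than 3.14 CPM, and 1 when any 1 of 6 libraries was left out. Of 7 erythroid genes 2 were higher (1 without AKI replicate 1, and 0 without AKI replicate 2, AKI replicate 3, AKI replicate 4 or pFUS_UC replicate 4). They stood out in pFUS_UC replicate 4: Hbb-bs had 0.432, 0.606, 1.16 and 183 CPM in the pFUS_UC libraries and 3.56, 1.21, 1.97 and 0.8900 CPM in AKI, and the calls of Hbb-bs and Hbb-bt rested on that library (log2 fold changes of -1.38 and -0.26 without it, not called). Of 14 adipocyte genes 1 was higher, Fabp4 (1.23), with a summed level of 740.5 to 1122 CPM in AKI and 807 to 1219 CPM in pFUS_UC. Of 6 skeletal muscle genes 2 were higher, Pvalb among them (0 to 2 without single libraries), and of 4 adrenal genes none was called. Genes listed for mesenchymal stromal cells had 5 of 11 lower and none higher (median -0.85), among them Nt5e, Mcam and Itgb1, which kidney cells express too. The part of these cells in the results above was not tested.

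A set of genes of at least 100 CPM in each group was nearly level, chosen for a log2 fold change under 0.1 in size and the smallest SE. Ppp6r3, a phosphatase 6 subunit, had 109, 113, 114 and 109 CPM in AKI and 106, 101, 102 and 107 CPM in pFUS_UC. Kmt5a, Sestd1, Psmc1 and Rab3ip were also in the set; these 5 genes had log2 fold changes from -0.10 to 0.06 and SEs of 0.08 to 0.09.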

How the data were processed

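RNA-seq of mouse kidney was deposited by the authors as a table of raw counts per gene and a table of FPKM values (counts per gene length and library size) for 56748 genes. HTSeq, DESeq2 and the build GRCm39 (mm39) are named in the submitters' processing notes; the aligner is not given in the sources used here. Counts were tested with edgeR 4.0.16 (R 4.3.3): genes kept by filterByExpr (minimum count 10, minimum total 15; 16947 kept), TMM scaling, and a quasi-likelihood F-test over all 12 libraries with 9 residual degrees of freedom, adjusted by Benjamini-Hochberg over all tested genes. The SE was taken from the test as |log2 fold change| over √F. Principal components used log2 CPM with a prior count of 2. The scripts were tested on simulated data. With 3 counts as the level that a count of 0 allows, the floor was 0.119 to 0.173 CPM; it covers counting error only.

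Named genes are up to 12 protein-coding and 4 other genes per direction by size (adjusted p under 0.05, at least 10 CPM in the higher group, no overlap), 3 called members per list with the smallest p plus the smallest-p member that moved against the list, 23 kidney, stress and injury genes, and 6 level genes; named genes that are not discussed were left out, and some are not reported here. Btg2, Dusp1, Maff and Uqcr11 (shown for their promoters), Cyp11b1, Cyp11a1, Star, mt-Co1, mt-Nd5, Lpl, Adipoq and Rn18s-rs5 lie outside this rule and were chosen after their values were seen. The same holds for the uncalled thick ascending limb genes. Groups, members, lists and this rule were chosen with earlier results of these data known. All 56 lists are plotted. Other settings tried were DESeq2 1.42.0, edgeR scaled by DESeq2's size factors, other filters, 8 libraries, a replicate block, single libraries left out, limma 3.58.1 on log2(FPKM + 1) and log2(FPKM + 0.1), offsets for gene length and GC content (GC for 98.1% of genes), and mitochondrially encoded genes left out. An alternative without AKI replicate 1 and pFUS_UC replicate 4 together was chosen after seeing the data.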

Additional observations from a re-analysis of the deposited data

Results flagged for a closer look

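In 358 groups of 4 values behind the text, 16 (4.47%) held a library whose gap to its nearest neighbour, relative to the group's range, exceeded Dixon's 95% limit for 4 values. The values of mt-Co1, mt-Nd5, Star, Cyp11a1, Lpl, Adipoq and the uncalled thick ascending limb genes were not among these groups. Chance marks about 1 in 20 groups.

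In pFUS_UC, replicate 4 was high for Hbb-bs (183 CPM, others 0.432 to 1.16), Hbb-bt (30.9 CPM, others up to 0.519), Col4a1 (199.7 CPM, others 157 to 164) and Amot (24.1 CPM, others 18.7 to 19.2). Replicate 3 was high for Gapdh (577 CPM, others 14.2 to 26.3) and low for Tjp1 (29.5 CPM, others 39.01 to 39.96). Replicate 1 was high for Clu (470.2 CPM, others 282 to 307).

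In AKI, replicate 1 was high for Amy1 (5.53 CPM, others 0.963 to 1.06), Kcnq1ot1 (4.04 CPM, others 1.45 to 1.87) and Hbb-bt (0.914 CPM, others up to 0.110), and low for Havcr1 (20.2 CPM, others 84.8 to 98.1). Replicate 3 was high for Nr1d1 (182 CPM, others 66.9 to 84.8) and Ppp1r1a (255 CPM, others 207 to 208) and low for Rps24 (144 CPM, others 194 to 204). Replicate 4 was high for Rab3ip (254 CPM, others 227 to 232) and low for Atp5l (126 CPM, others 139 to 140.3).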

How the results depend on the processing

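The number of genes called, 7463, ranged from 6478 with offsets for gene length and GC content to 7926 with DESeq2 over the alternatives that kept all libraries, and from 5945 to 7740 when single libraries were left out. With the length and GC offsets 5080 of the 7463 genes were called again, 12 of them in the opposite direction, and 55.5% of calls were higher against 49.8%. With those offsets 6 mitochondrially encoded protein genes were higher, and 11 collagen, 9 proximal tubule and 13 Hippo genes lower, and the median of chromatin regulators became 0.10. Without AKI replicate 1 and pFUS_UC replicate 4 together 7004 genes were called, 6279 of them shared, and 3 distal tubule genes were higher. In that setting the erythroid median was -0.33 and the log2 fold change of Hbb-bs -0.89. With single libraries left out, the erythroid median ranged from -0.26 to 0.89, Hbb-bs from -1.38 to 5.05 and Hbb-bt from -0.26 to 7.11, each lowest without pFUS_UC replicate 4. The cause of these shifts was not tested. With the mitochondrially encoded genes left out, that list gave no value. Of 169 genes with values in the text, 148 kept their call, or lack of one, and any called direction under all of these alternatives. Hbb-bs and Hbb-bt were the 2 that reversed. Most of the 169 were named for a large change or a small p in these data, so this count does not stand for all genes. Over all genes, 78.33% of the 7463 calls were kept without pFUS_UC replicate 3. DESeq2 gave no adjusted p for 3 of the 169. The genes mt-Co1, mt-Nd5, Star, Cyp11a1, Lpl, Adipoq and the uncalled thick ascending limb genes were not among the 169. With the replicate number as a block 7044 genes were called, 6867 of them shared. Same-numbered libraries did not deviate together (r = -0.07, 0.10, -0.11 and -0.01), only those numbered 2 correlated best with each other, and the labels do not say that numbers pair samples. At 17.3 to 25.2 M counts, 3 counts amount to 0.119 to 0.173 CPM, which limits genes of low level, and 4 libraries a group limit small differences: the median SE was 0.199 on the log2 scale.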
